A study of Bos taurus with 8 samples.

Results

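The genes described here are a list of 44 genes of the type I interferon response, taken as a list of symbols and not by their values. A member was measured when the accession of a probe on the array, with its version dropped, belonged to that symbol in a RefSeq gene table. This gave 29 of the 44 members, among 15137 genes measured in all. The other 15 had no probe that this match named and were not analysed here: ISG20, IFIT1, IFIT2, IFI44, IFI44L, IFI16, IFIH1, BST2, EPSTI1, CMPK2, DDX60, ZBP1, IFITM1, IFITM3 and ADAR.

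The samples were peripheral blood mononuclear cells, the fraction of blood that holds lymphocytes and monocytes, from lame crossbred cattle, normal crossbred cattle and normal cattle of the Tharparkar breed, an Indian zebu breed. An Agilent bovine array read in 1 colour was used 8 times: 4 arrays for the lame crossbred group and 2 each for the normal crossbred and normal Tharparkar groups. The labels name neither the cause or grade of lameness, nor the age or sex of the animals, nor the breeds that were crossed, and no lame Tharparkar group was included. According to the labels' protocol, RNA samples were labelled as technical duplicates, and the lame titles (R1_1, R1_2, R2_1 and R2_2) are read here as 2 arrays each of RNA samples R1 and R2. The 2 arrays of each normal group are then 1 RNA sample each, so the p-values below measure the spread between arrays, which is in part technical, and are too small as tests of cattle.

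Type I interferons are secreted by cells that sense foreign or misplaced nucleic acid. They bind a shared receptor, whose kinases activate STAT proteins. STAT2 and IRF9 are parts of a transcription factor that switches on a large set of interferon-stimulated genes. Some of these genes encode sensors and transcription factors that strengthen the response, others encode proteins that block viral entry, translation, replication or budding, and a few, such as USP18, damp the signal. Cells of the blood carry a low level of many of these transcripts at rest.

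Each value is the log2 processed signal of a probe from which the 75th percentile of its array was subtracted, so 0 is the signal of a probe at that percentile, 1 is 2 times that signal and negative values are dimmer. Such values compare arrays for 1 probe and do not compare genes with each other. A gene was called when limma gave an adjusted p under 0.05 over all 15137 genes. Of the 29 members, 26 passed the filter on dim probes in all 3 groups and 3 passed in 2 groups. OAS2 was not well above background on either Tharparkar array, DHX58 was well above it on 1 of 2 normal crossbred arrays, and OAS1X on 3 of 4 lame arrays.

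Between 52.8% and 61.5% of probes were well above background on 7 arrays. The share was 70.9% on lame R2_2, where the median raw signal was 192.5 and that of the negative control spots 107, against at most 102 and 65 on the others. The calls of the members and of the listed pathway genes were therefore also computed without it. Of the markers of mononuclear cells, all 8 T cell, all 5 NK cell and all 6 monocyte markers were measured. Granulocyte markers were also present, with 9 of 10 measured.

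Against normal crossbred cattle, the members leaned lower in the lame group. Of the 29 members, 8 were called lower (27.6%) and 0 higher, whereas 6.33% of all genes were called lower and 3.25% higher. At an unadjusted p under 0.05 in limma, 14 members were lower and 1 was higher, beside 15.8% and 10% of all genes. The mean was lower in lame cattle for 24 of 29 members (82.8%), against 53.7% of all genes. All 4 lame arrays lay below both normal crossbred arrays for 16 members (55.2%) and above both for 1, OAS2, where the shares over all genes were 23.2% and 15.7%. The median difference was -0.47 on the log2 scale for the members and -0.04 for all genes.

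Against Tharparkar cattle the same lame arrays were lower for fewer members. In that comparison 5 members were called lower (17.2%) and 1 higher (3.45%), beside 10.8% and 12.5% of all genes. At an unadjusted p under 0.05 the counts were 7 lower and 3 higher, beside 17.9% and 19.7% of all genes. The mean was lower in lame cattle for 20 members (69%), against 50.8% of all genes. All lame arrays lay below both Tharparkar arrays for 11 members (37.9%, against 25.1% of all genes) and above both for 3 (10.3%, against 24.8%). The median difference was -0.25 for the members and -0.01 for all genes.

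Between the normal groups, 7 members were called higher in crossbred than in Tharparkar cattle (24.1%) and 0 lower, while 11.8% of all genes were called higher and 6.9% lower. At an unadjusted p under 0.05 the counts were 8 higher and 2 lower, beside 19.8% and 13.9% of all genes. The mean was lower in crossbred cattle for 7 members (24.1%), beside 49.3% of all genes. With only 2 arrays a group, the arrays did not overlap for most genes: 18 members lay higher (62.1%, against 41.6% of all genes) and 6 lower (20.7%, against 40.3%). The median difference was 0.16 for the members and 0.01 for all genes. The 3 comparisons share arrays, so they are not independent of each other, and a low or high normal crossbred value enters both comparisons that use it.

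**Figure D1:**
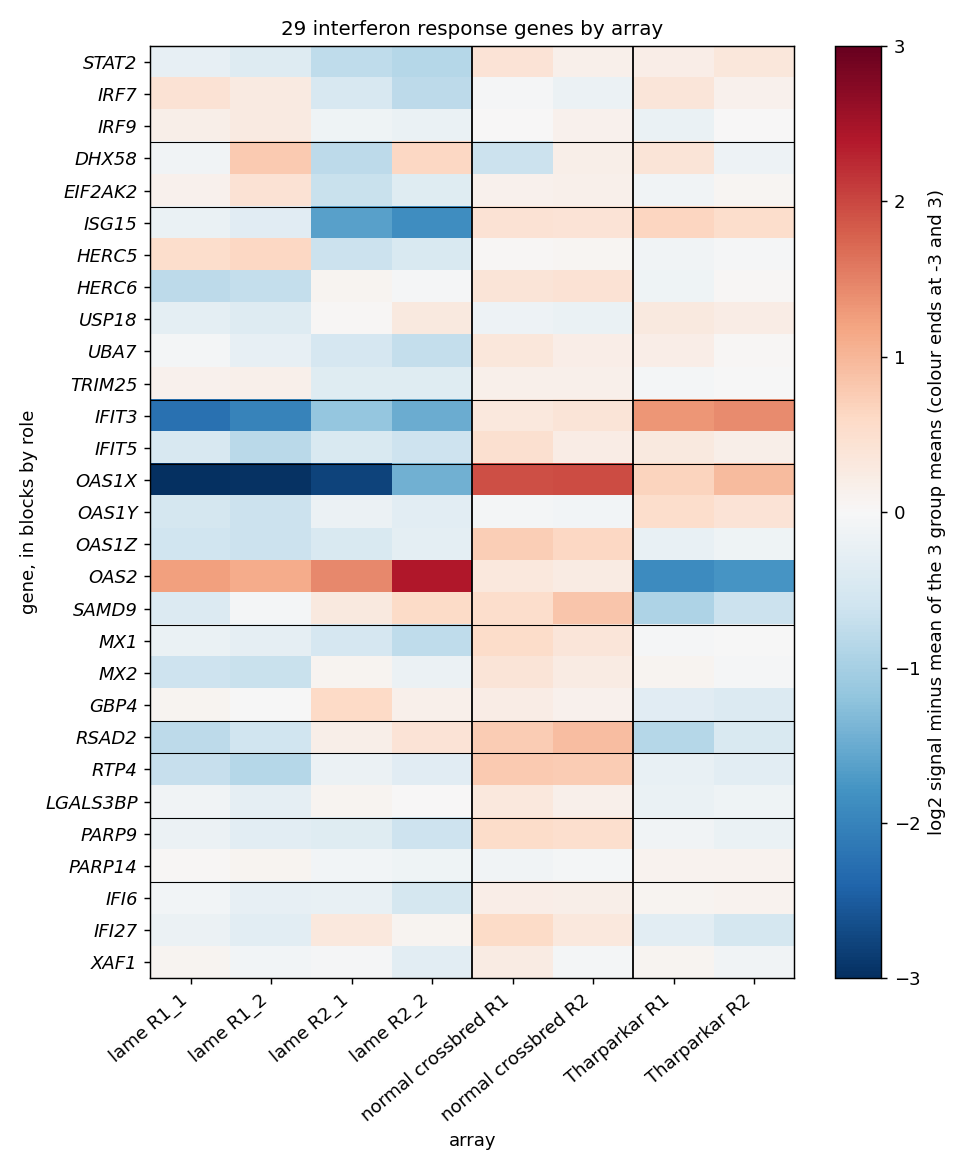
Heat map of the 29 measured members (rows, in blocks by role) on the 8 arrays (columns, black lines between groups); colour is the log2 signal minus the mean of the 3 group means of that gene, blue lower and red higher, with colours ending at -3 and 3. OAS1X and IFIT3 are blue on all 4 lame arrays, ISG15 is darkest on the 2 arrays of lame RNA sample R2, and OAS2, a dim probe whose order against Tharparkar turns with another background correction, is red on the lame arrays.

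The signalling members did not move together. STAT2 is a part of the factor that interferon activates. Its signal was 2.33 and 2.19 on the arrays of lame R1, 1.82 and 1.73 on those of lame R2, 3.0 and 2.73 on the normal crossbred arrays and 2.79 and 2.93 on the Tharparkar arrays. All 4 lame arrays lay below all 4 normal ones, and the normal groups overlapped. STAT2 was 1.80-fold lower in lame than in normal crossbred cattle (log2 difference -0.84, SE 0.21, adjusted p = 0.0477, limma) and 1.79-fold lower than in Tharparkar cattle (-0.84, SE 0.21, adjusted p = 0.0272, limma). Without lame R2_2 the difference from normal crossbred cattle was -0.75 and no longer called (adjusted p = 0.0542, limma). STAT2 was called in 4 of 16 alternative analyses against normal crossbred and in 7 of 16 against Tharparkar cattle.

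IRF9, the DNA-binding part of the same factor, ranged from 3.55 to 4.02 on the lame arrays and from 3.54 to 3.86 on the normal ones, and its groups overlapped. IRF7, which drives the later wave of interferon production, was 3.57 and 3.40 on lame R1, 2.65 and 2.35 on lame R2, 3.1 and 2.96 on the normal crossbred arrays and 3.5 and 3.25 on the Tharparkar arrays. Lame R1 was thus above both normal crossbred arrays and lame R2 below both. The lame group's mean difference from normal crossbred cattle was -0.03 (SE 0.35, adjusted p = 0.97, limma), and its sign turned with the scaling or background correction.

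Neither sensor was called in any comparison. EIF2AK2, the kinase PKR that halts translation on double-stranded RNA, was -0.03 and 0.28 on lame R1, -0.83 and -0.53 on lame R2 and between -0.26 and -0.02 on the 4 normal arrays, so lame R2 lay below every normal array, while 1 lame R1 array lay inside their range and 1 above it. DHX58, or LGP2, a regulator of the RIG-I-like receptors, ranged from -4.43 to -2.86 on the lame arrays and from -4.28 to -3.25 on the normal arrays. Its duplicates lay further apart than the group means. IFIH1, the sensor MDA5, is among the members without a named probe.

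Of the 29 members, ISG15 had the largest difference between the lame RNA samples. ISG15 is a ubiquitin-like protein that is attached to other proteins after interferon and is also secreted. Its signal was 3.33 and 3.20 on lame R1, 1.91 and 1.67 on lame R2, 3.98 and 3.94 on the normal crossbred arrays and 4.18 and 4.05 on the Tharparkar arrays. All lame arrays lay below all normal ones, by far more in R2 than in R1. Lame R1 was 0.69 below normal crossbred cattle on the log2 scale and lame R2 was 2.17 below. With that spread the difference was -1.43 (SE 0.49, adjusted p = 0.118, limma) from normal crossbred and -1.59 (SE 0.49, adjusted p = 0.0554, limma) from Tharparkar cattle, and ISG15 was called in neither. A second, nearly as bright ISG15 probe gave -1.34 and -1.65 for these comparisons, and the latter was called in the limma fit over probes (adjusted p = 0.0173).

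UBA7, the enzyme that activates ISG15 for conjugation, was also lowest in lame cattle, in smaller steps. It was 2.47 and 2.28 on lame R1, 2.03 and 1.81 on lame R2, 2.86 and 2.72 on normal crossbred and 2.71 and 2.55 on Tharparkar arrays. All lame arrays were below all normal arrays, but the difference of -0.64 from normal crossbred cattle was not called (SE 0.20, adjusted p = 0.0983, limma). HERC5, the ligase for ISG15, ran differently, at 0.85 and 0.96 on lame R1, -0.31 and -0.12 on lame R2 and between 0.22 and 0.38 on the normal arrays. Lame R1 was above every normal array and lame R2 below every one, and the mean difference was -0.03 from normal crossbred cattle.

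HERC6, the neighbouring gene of HERC5 and a ligase of the same family, split the other way. It was -0.23 and -0.15 on lame R1, 0.65 and 0.53 on lame R2, 0.94 and 0.99 on normal crossbred and 0.42 and 0.60 on Tharparkar arrays. Its brightest probe was not called against normal crossbred cattle (-0.76, SE 0.28, adjusted p = 0.139, limma), while its dimmer second probe had an adjusted p of 0.0200 at -1.05 in the limma fit over probes. USP18, the protease that removes ISG15 and damps receptor signalling, ranged from -0.49 to 0.20 in lame cattle, overlapped normal crossbred cattle at -0.26 and -0.29 and lay around 0.13 and 0.19 in Tharparkar cattle. TRIM25, a ligase that supports RIG-I, ranged from 4.02 to 4.55 on the lame arrays against 4.32 to 4.54 on the normal ones. None of the 6 genes of this group was called in any comparison.

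Both measured members of the IFIT family were lower in lame cattle than in either normal group. IFIT proteins bind viral RNA and restrain its translation. IFIT3, which stabilises the IFIT complex, was -2.35 and -2.13 on lame R1, -1.28 and -1.61 on lame R2, 0.21 and 0.26 on the normal crossbred arrays and 1.21 and 1.3 on the Tharparkar arrays. The groups were fully separate, with lame cattle lowest and Tharparkar cattle highest. IFIT3 was 4.22-fold lower in lame than in normal crossbred cattle (-2.08, SE 0.30, adjusted p = 0.00714, limma) and 8.56-fold lower than in Tharparkar cattle (-3.1, SE 0.30, adjusted p = 0.000748, limma). The difference between the normal groups, -1.02 (SE 0.34), was not called (adjusted p = 0.079, limma).

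The call of IFIT3 against Tharparkar cattle held in all 16 alternatives, with adjusted p from 0.000189 to 0.0272 in limma, including the fit that treats the RNA sample as a random block. Against normal crossbred cattle it was called in 12 of 16, and that same fit gave an adjusted p of 0.171 (limma). Its second probe gave differences of -1.5 and -1.92 from the respective normal groups, and within the slides the differences from normal crossbred cattle were -2.02 and -2.14. IFIT5, which binds RNA that ends in a triphosphate, was 0.90 and 0.56 on lame R1, 0.93 and 0.75 on lame R2, 1.86 and 1.61 on normal crossbred and 1.67 and 1.56 on Tharparkar arrays. The lame arrays lay below all normal arrays, the lame RNA samples overlapped and so did the normal groups. IFIT5 was 1.93-fold lower than in normal crossbred cattle (-0.95, SE 0.16, adjusted p = 0.0143, limma) and 1.78-fold lower than in Tharparkar cattle (-0.83, SE 0.16, adjusted p = 0.0119, limma).

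The OAS genes encode enzymes that double-stranded RNA activates and that make short chains of adenylate as messengers. Cattle carry several copies of OAS1, and in the gene table OAS2, OAS1Y, OAS1X and OAS1Z follow one another with no protein-coding gene between them. These neighbours had 4 different patterns. Near-identical copies can cross-hybridise, and no probe sequence was at hand to test how far each probe was specific.

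OAS1X had the largest difference of any member. It was -4.55 and -3.71 on lame R1, -3.51 and -2.17 on lame R2, 1.2 and 1.22 on normal crossbred and -0.06 and 0.22 on Tharparkar arrays. The lame arrays were far below all normal ones and also far apart from each other. OAS1X was 25.9-fold lower in lame than in normal crossbred cattle (-4.70, SE 0.56, adjusted p = 0.00373, limma) and 11.8-fold lower than in Tharparkar cattle (-3.56, SE 0.56, adjusted p = 0.00523, limma). Its lame signal lay near background, with 1 of the 4 arrays not well above it, so the size of the fold is loosely held. The differences ranged from -5.14 to -2.89 and from -4.0 to -1.95 over the alternatives. Without lame R2_2 they were -5.14 and -4.0, both called. In the fit with the RNA sample as a random block neither was called (adjusted p = 0.308 and 0.251, limma).

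OAS1Y was 3.07 and 2.96 on lame R1, 3.41 and 3.28 on lame R2, 3.53 and 3.51 on normal crossbred and 4.13 and 4.01 on Tharparkar arrays. The groups did not overlap, and Tharparkar cattle were highest. OAS1Y was 1.86-fold lower in lame than in Tharparkar cattle (-0.89, SE 0.17, adjusted p = 0.00963, limma), while its difference of -0.35 from normal crossbred cattle was not called (adjusted p = 0.242, limma). OAS1Z was -2.65 and -2.68 on lame R1, -2.50 and -2.34 on lame R2, -1.29 and -1.43 on normal crossbred and -2.27 and -2.17 on Tharparkar arrays. Here normal crossbred cattle stood above both other groups. OAS1Z was 2.27-fold lower in lame than in normal crossbred cattle (-1.18, SE 0.15, adjusted p = 0.00494, limma) and 1.82-fold higher in normal crossbred than in Tharparkar cattle (0.86, SE 0.18, adjusted p = 0.0156, limma). Its second, dimmer probe gave -0.31 and 0.09.

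OAS2 ran the other way, higher in lame cattle. It was -3.31 and -3.42 on lame R1, -3.11 and -2.14 on lame R2, -4.23 and -4.29 on normal crossbred and -6.43 and -6.32 on Tharparkar arrays, where it was not well above background. The measured difference between lame and Tharparkar cattle was 3.38 (SE 0.34, adjusted p = 0.000985, limma), and set against the lowest signal well above background on the Tharparkar arrays OAS2 was at least 2.46-fold higher in lame cattle. The bound for normal crossbred over Tharparkar cattle was at least 1.02-fold (2.11, SE 0.40, adjusted p = 0.0118, limma). With normexp background correction both directions turned, to -0.17 and -0.44, and neither was called, so the order of OAS2 against Tharparkar cattle rests on how the background is treated. The difference of 1.26 between lame and normal crossbred cattle was not called (SE 0.34, adjusted p = 0.065, limma).

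SAMD9, a restriction factor for poxviruses, was -0.16 and 0.20 on lame R1, 0.53 and 0.83 on lame R2, 0.77 and 1.08 on normal crossbred and -0.67 and -0.39 on Tharparkar arrays. Tharparkar arrays were lowest, and lame and normal crossbred arrays overlapped. SAMD9 was 2.75-fold higher in normal crossbred than in Tharparkar cattle (1.46, SE 0.33, adjusted p = 0.0217, limma), a call made in 9 of 16 alternatives.

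**Figure D2:**
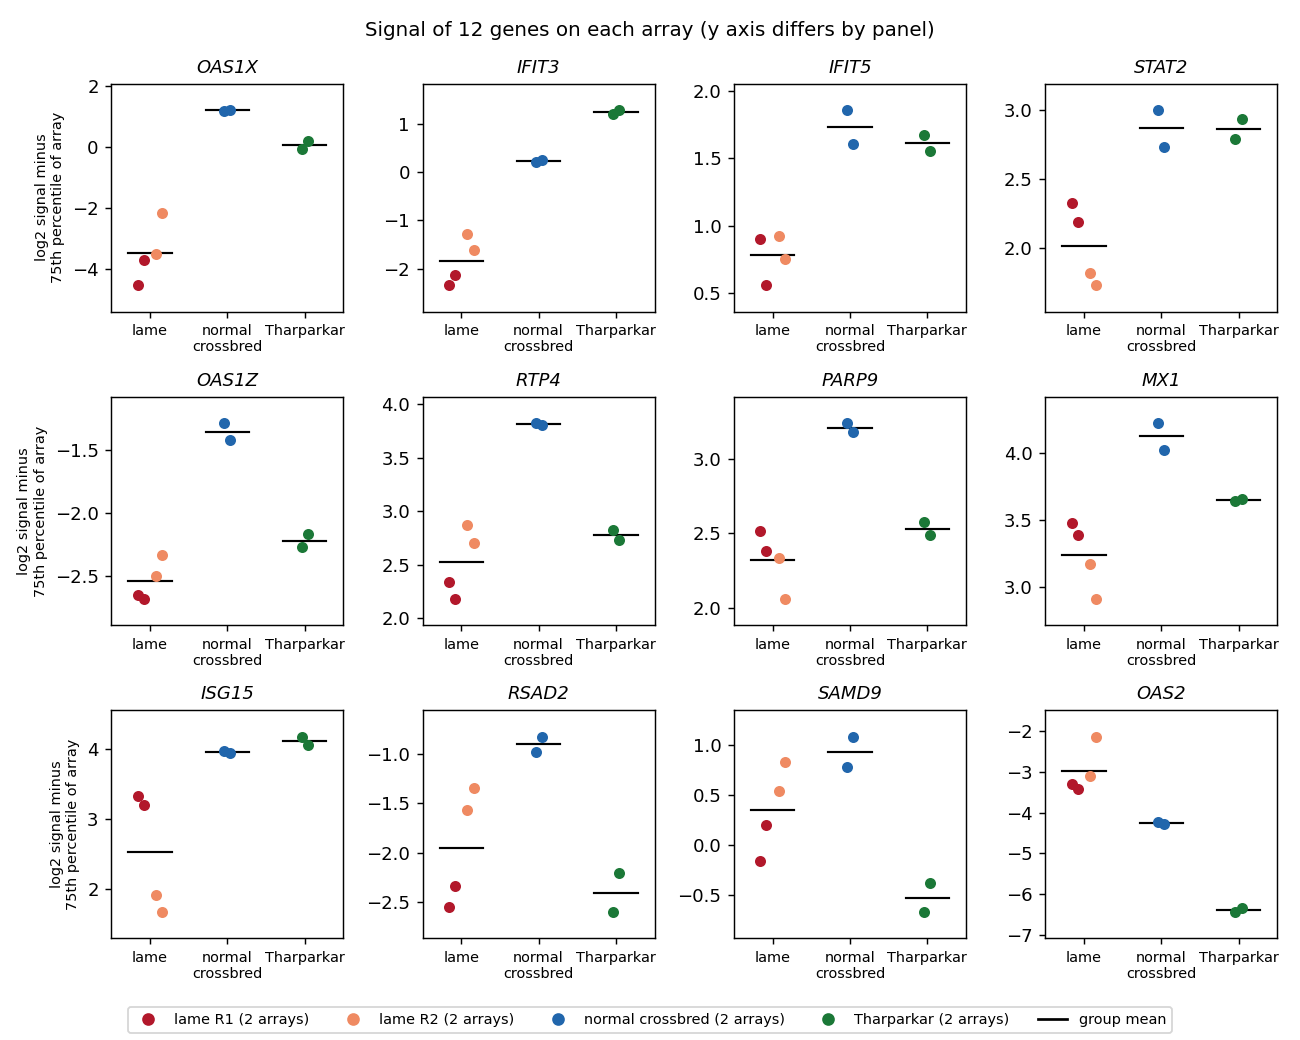
Log2 signal minus the array's 75th percentile (y axis, which differs by panel) for 12 members on each array, with points coloured by RNA sample or group and a black line at the group mean. In the top row all 4 lame points of OAS1X, IFIT3, IFIT5 and STAT2 lie below every normal point, in the middle row OAS1Z, RTP4, PARP9 and MX1 are highest in normal crossbred cattle, and in the bottom row ISG15 splits by lame RNA sample while OAS2 was not well above background in Tharparkar cattle, and its order against them turned under normexp.

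The GTPases MX1 and MX2, which block viral ribonucleoproteins, are neighbouring genes. MX1 was 3.48 and 3.39 on lame R1, 3.17 and 2.91 on lame R2, 4.22 and 4.03 on normal crossbred and 3.64 and 3.66 on Tharparkar arrays. The groups did not overlap, and normal crossbred cattle were highest. MX1 was 1.85-fold lower in lame than in normal crossbred cattle (-0.89, SE 0.19, adjusted p = 0.0300, limma), and the -0.41 from Tharparkar cattle was not called (adjusted p = 0.157, limma). The call rests on 1 probe: another MX1 probe as bright, at 3.85 and 3.96 on lame R1, 3.19 and 3.17 on lame R2 and 3.53 and 3.59 on normal crossbred arrays, gave -0.02, and the dimmest gave 0.31. MX1 was called in 5 of 16 alternatives, and the mean of its probes was not among them.

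MX2 was -2.22 and -2.28 on lame R1, -1.52 and -1.79 on lame R2, -1.23 and -1.36 on normal crossbred and -1.51 and -1.64 on Tharparkar arrays. Its lame arrays lay below the normal crossbred ones but overlapped the Tharparkar ones, and it was not called (-0.66 from normal crossbred cattle, SE 0.24, adjusted p = 0.132, limma). GBP4, a guanylate-binding GTPase, ranged from -0.52 to 0.07 in lame and from -0.38 to -0.29 in normal crossbred cattle and was -0.86 and -0.93 in Tharparkar cattle. The Tharparkar arrays were lowest, but no comparison was called.

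RSAD2, or viperin, makes a chain-terminating nucleotide. It was -2.54 and -2.34 on lame R1, -1.57 and -1.35 on lame R2, -0.98 and -0.82 on normal crossbred and -2.60 and -2.21 on Tharparkar arrays. Normal crossbred cattle were highest, lame R2 lay between and lame R1 overlapped Tharparkar cattle. RSAD2 was 2.83-fold higher in normal crossbred than in Tharparkar cattle (1.5, SE 0.41, adjusted p = 0.0431, limma), and the -1.05 between lame and normal crossbred cattle was not called (SE 0.36, adjusted p = 0.115, limma).

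RTP4, a chaperone that brings receptors to the cell surface, had its highest signal in normal crossbred cattle too. It was 2.34 and 2.18 on lame R1, 2.87 and 2.71 on lame R2, 3.82 and 3.80 on normal crossbred and 2.82 and 2.73 on Tharparkar arrays. Lame and Tharparkar arrays overlapped. RTP4 was 2.44-fold lower in lame than in normal crossbred cattle (-1.29, SE 0.21, adjusted p = 0.0127, limma) and 2.05-fold higher in normal crossbred than in Tharparkar cattle (1.04, SE 0.25, adjusted p = 0.0273, limma). A dim second probe gave 0.27 and -0.35. LGALS3BP, a secreted galectin-binding glycoprotein, lay between 3.12 and 3.48 on the lame arrays, at 3.71 and 3.54 in normal crossbred and at 3.20 and 3.25 in Tharparkar cattle, and was not called.

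PARP9, an ADP-ribosyltransferase that works with the ligase DTX3L, shared that order of groups. It was 2.52 and 2.38 on lame R1, 2.33 and 2.06 on lame R2, 3.24 and 3.18 on normal crossbred and 2.57 and 2.49 on Tharparkar arrays. The normal crossbred arrays stood above all others. PARP9 was 1.85-fold lower in lame than in normal crossbred cattle (-0.89, SE 0.16, adjusted p = 0.0171, limma) and 1.60-fold higher in normal crossbred than in Tharparkar cattle (0.68, SE 0.19, adjusted p = 0.0428, limma). A second PARP9 probe gave -0.79 against normal crossbred cattle and was called, and the dimmest gave -0.04. PARP14 lies close to PARP9 in the genome, with 1 protein-coding gene between them. Its brightest probe stayed between 2.48 and 2.71 on all 8 arrays and was not called. Its dimmer second probe ranged from -2.64 to -1.78 on the lame arrays. That probe was -1.77 and -2.26 on normal crossbred and -3.23 and -3.21 on Tharparkar arrays. In the limma fit over probes it was called higher in normal crossbred than in Tharparkar cattle (adjusted p = 0.0493). That fit did not call it between lame and Tharparkar cattle (adjusted p = 0.055).

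Of the remaining induced proteins, IFI27, a mitochondrial protein, was called between the normal groups. It was 1.70 and 1.56 on lame R1, 2.20 and 1.96 on lame R2, 2.46 and 2.19 on normal crossbred and 1.58 and 1.36 on Tharparkar arrays. The normal groups were apart and the lame arrays spanned the gap. IFI27 was 1.81-fold higher in normal crossbred than in Tharparkar cattle (0.85, SE 0.24, adjusted p = 0.0495, limma). Its other 2 kept probes, both dimmer, gave 1.52 (adjusted p = 0.005) and -0.59 (adjusted p = 0.438) for this comparison in the limma fit over probes. IFI6 ranged from 3.40 to 3.85 in lame cattle and from 4.02 to 4.14 on the normal arrays, without overlap, yet was not called (-0.46 from normal crossbred cattle, SE 0.16, adjusted p = 0.119, limma). XAF1, an antagonist of the apoptosis inhibitor XIAP, was read by 2 probes that differed. Its brightest probe ranged from 3.08 to 3.46 in lame cattle and from 3.29 to 3.65 in the normal groups, which overlapped it. The dimmer probe lay between 0.61 and 1.16 on the lame arrays, below all normal arrays (1.26 to 2.10). It gave -0.39 from normal crossbred (adjusted p = 0.332) and -1.07 from Tharparkar cattle (adjusted p = 0.0161) in the limma fit over probes. With the mean of its probes XAF1 was called lower in lame than in Tharparkar cattle.

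**Figure D3:**
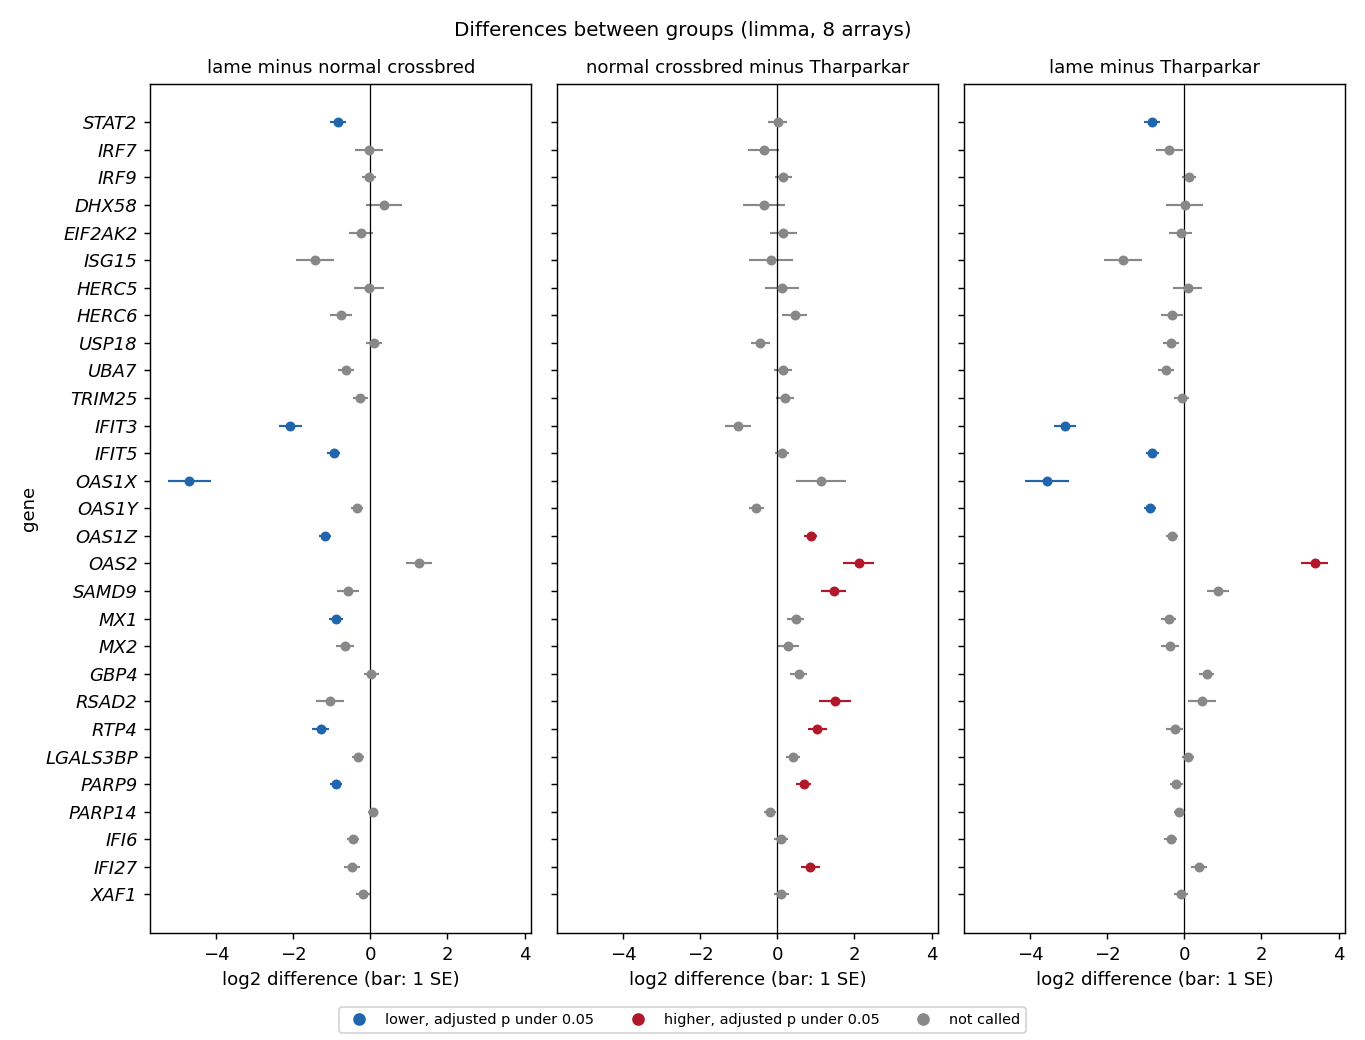
Log2 difference (x axis, point) with 1 standard error (bar) of the 29 members in each of the 3 comparisons, blue where called lower, red where called higher and grey where not called (limma, adjusted p under 0.05). Of the 29 points, 24 lie below 0 for lame against normal crossbred cattle, 20 for lame against Tharparkar cattle and 7 between the normal groups, and the red OAS2 points of the other comparisons are differences whose sign turned with normexp background correction.

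Set side by side, the called members fall into a few patterns by their own values. IFIT3, IFIT5, OAS1X and STAT2 were called lower in lame cattle against both normal groups. OAS1Z, RTP4 and PARP9 were called lower in lame than in normal crossbred cattle and higher in normal crossbred than in Tharparkar cattle, and their lame-minus-Tharparkar differences were -0.32, -0.25 and -0.21, none called. MX1 was called against normal crossbred cattle alone, OAS1Y against Tharparkar cattle alone, and RSAD2, SAMD9 and IFI27 between the normal groups alone. OAS2 was called in both comparisons with Tharparkar cattle. In all, 13 members were called in at least 1 comparison and 16 in none.

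The lame group held 2 RNA samples, and they did not match in many members. The size of the difference between lame R1 and R2 had a median of 0.48 over the members, against a median gap of 0.14 between duplicate arrays. Over all genes these medians were 0.50 and 0.13. For 21 of 29 members R1 and R2 differed by more than either pair of duplicates, with R1 higher for 10 and R2 higher for 11. The share of all genes with such a difference was not computed. The difference reached 1 on the log2 scale for 3 members: ISG15 (1.48) and HERC5 (1.12), higher in R1, and OAS1X (-1.29), higher in R2. For OAS1X the duplicate arrays of R2 differed by 1.35 themselves.

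Both lame RNA samples lay below normal crossbred cattle for 20 members and above for 2, OAS2 and DHX58. They lay on opposite sides for 7: HERC5, USP18, IRF7, IRF9, PARP14, EIF2AK2 and GBP4. Such counts were not made for all genes. Taken singly, R1 lay below normal crossbred cattle for 22 members and R2 for 25, beside 6957 and 9154 of 15137 genes. The median difference from normal crossbred cattle was -0.51 for R1 and -0.53 for R2, where all genes had medians of 0.05 and -0.16. Against Tharparkar cattle both lay below for 15 members, above for 4 and on opposite sides for 10, with medians of -0.08 and -0.21. Singly, R1 lay below for 19 members and R2 for 21, beside 6709 and 8268 of 15137 genes. All genes had medians of 0.08 and -0.09.

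**Figure D4:**
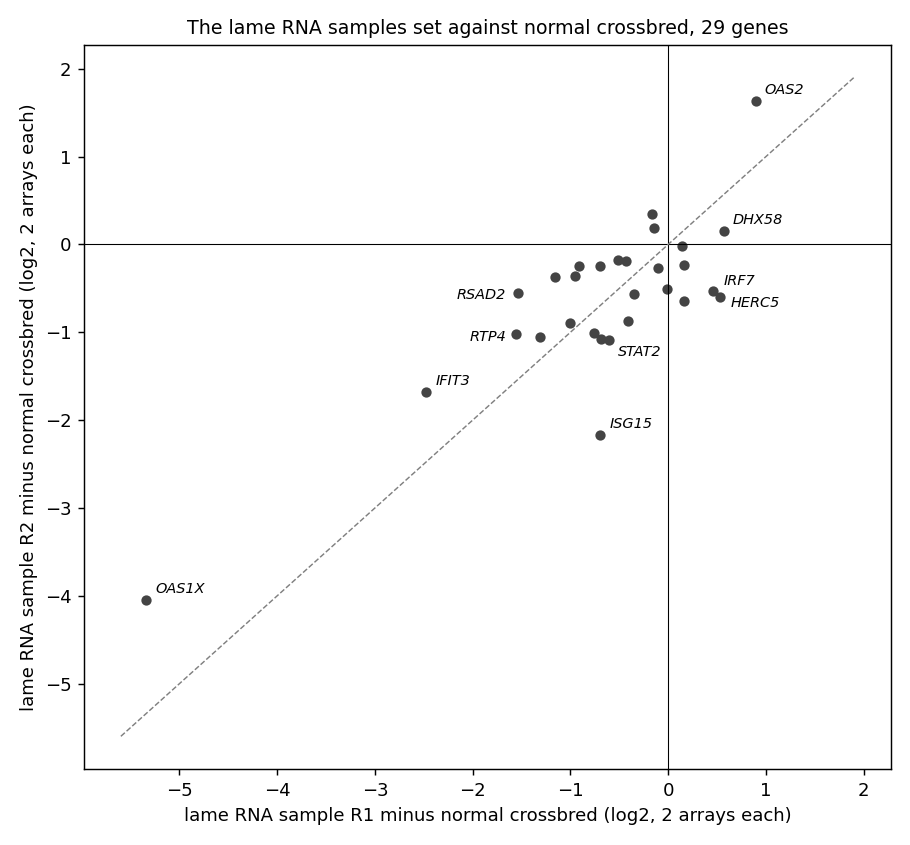
Difference of lame RNA sample R1 (x axis) and R2 (y axis) from the mean of the normal crossbred arrays, in log2 units, for the 29 members, with the line of equal values dashed. Most points lie in the lower left, where both are lower (20 members), ISG15 lies far below the line, and IRF7 and HERC5 lie right of 0 and below 0.

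Many members were read by more than 1 probe, and the probes did not always point one way. In all 54 probes matched the members and 50 passed the filter, so that 16 members had several and 13 had 1. Between lame and normal crossbred cattle, 39 of 50 probes were below 0 and 11 above, and 10 were called lower and 0 higher, while 4.17% of all probes were called lower and 3.2% higher. The probes of 7 of the 16 genes had both signs: GBP4, IFI27, IRF9, MX1, PARP14, RTP4 and TRIM25. For the other 9, ISG15, IFIT3, HERC6, SAMD9, STAT2, PARP9, IRF7, OAS1Z and XAF1, all kept probes were below 0.

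**Figure D5:**
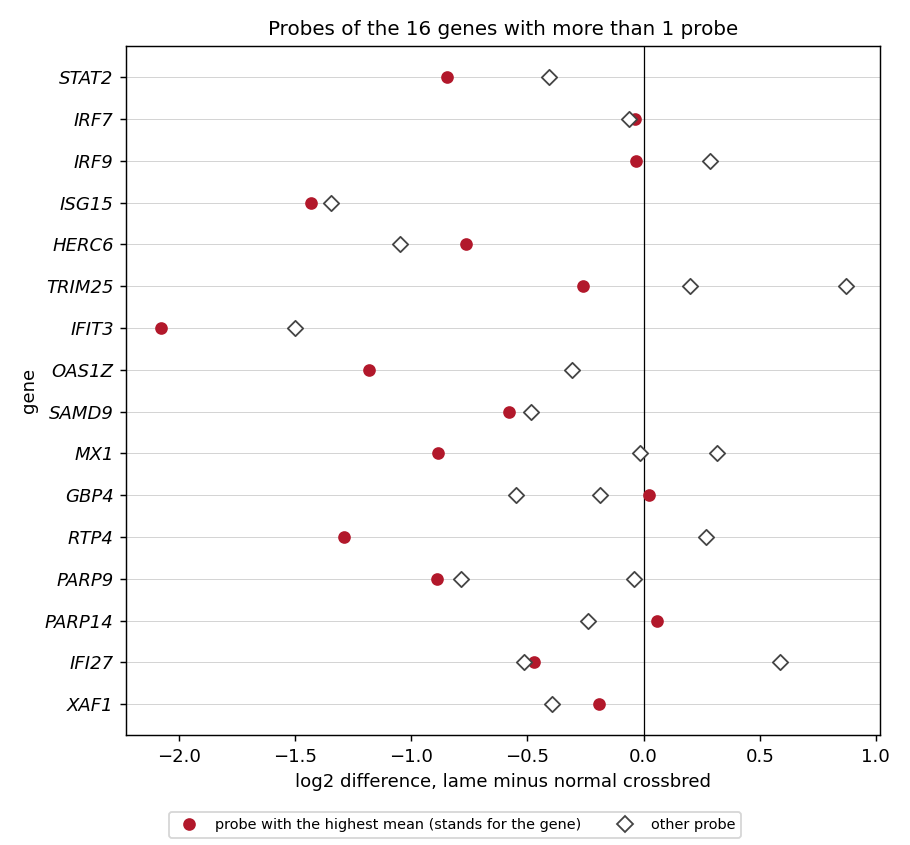
Log2 difference between lame and normal crossbred cattle (x axis) for each probe of the 16 members with more than 1 probe, filled red for the probe with the highest mean, which stands for the gene, and open for the others. Both IFIT3 probes and both ISG15 probes lie below -1, whereas the other MX1 probes lie at -0.02 and 0.31.

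Each slide held arrays of all 3 groups. Slide 1 carried lame R1_1 and R2_1 and slide 2 carried lame R1_2 and R2_2, each with 1 array of both normal groups. The median difference of the members between lame and normal crossbred cattle was -0.51 on slide 1 and -0.56 on slide 2. That of all genes was -0.05 and -0.04. Between normal crossbred and Tharparkar cattle the median of the members was 0.22 and 0.17, and that of all genes 0.01 and 0.01. Between lame and Tharparkar cattle the members had -0.22 and -0.28, and all genes -0.03 and 0.003. With slide as a block, 6 members were called lower between lame and normal crossbred cattle, without MX1 and STAT2. That fit called 4.31% of all genes lower there.

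The calls were far fewer when arrays of 1 RNA sample were not taken as independent. With the RNA sample as a random block (consensus correlation 0.82), limma called 0 members between lame and normal crossbred cattle (7 lower at an unadjusted p under 0.05, beside 5.33% of all genes). It called 0 between the normal groups (4 higher and 0 lower unadjusted, beside 7.89% and 4.33% of all genes) and 1, IFIT3, between lame and Tharparkar cattle. Of all genes that fit called 0.0661% lower and 0.0859% higher between lame and normal crossbred cattle, and 0.614% lower and 0.733% higher between lame and Tharparkar cattle. With the duplicates averaged it called OAS1X alone between lame and normal crossbred cattle, 0 members between the normal groups, and IFIT3 and OAS1X lower and OAS2 higher between lame and Tharparkar cattle. The shares of all genes called lower and higher were then 0.647% and 0.456% between lame and normal crossbred cattle and 1.41% and 2.11% between lame and Tharparkar cattle. Without either normal crossbred array, 0 members were called between lame and normal crossbred cattle, with 8 and 9 lower at an unadjusted p under 0.05, beside 8.38% and 8.63% of all genes. Without lame R2_2, 8 were called lower, 7 of them the same genes, with RSAD2 in place of STAT2, and OAS2 was called higher. The shares of all genes were then 7.73% lower and 4.3% higher.

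Other parts of the interferon pathway were read from lists by role, of which 97 of 156 genes were measured. Of 18 type I and type III interferon genes listed, 7 had a probe, 13 probes in all, and 0 were well above background on every array of any group. The measured ligand was IFNG, the type II interferon of T and NK cells. It was -2.26 and -2.23 on lame R1, -1.78 and -2.12 on lame R2, -0.52 and -0.64 on normal crossbred and -2.84 and -2.68 on Tharparkar arrays. The groups were separate, with normal crossbred cattle highest. IFNG was lower in lame than in normal crossbred cattle (-1.52, SE 0.18, adjusted p = 0.00336, limma) and higher in normal crossbred than in Tharparkar cattle (2.18, SE 0.20, adjusted p = 0.000888, limma).

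Of 9 receptor and JAK-STAT genes, 1 was called lower between lame and normal crossbred cattle, STAT3 (-1.01, SE 0.18, adjusted p = 0.0155, limma), and 0 higher. The shares of all genes called there were 6.33% lower and 3.25% higher. STAT3 and STAT4 were called higher in normal crossbred than in Tharparkar cattle (0.72 and 1.39). The receptor chains IFNAR1 and IFNAR2 were not called, at -0.56 and -0.07 between lame and normal crossbred cattle. Against Tharparkar cattle TYK2 and STAT4 were called higher in lame cattle (0.88 and 0.99).

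Of 16 sensors and adaptors, 3 were called higher in lame than in normal crossbred cattle and 0 lower. Over all genes, 3.25% were called higher there and 6.33% lower. UNC93B1, which carries endosomal Toll-like receptors to their compartment, was between 0.33 and 0.82 on the lame arrays, -1.17 and -1.18 on the normal crossbred arrays and 0.61 and 0.49 on the Tharparkar arrays. Normal crossbred cattle stood apart below the rest. TLR7, the endosomal sensor of single-stranded RNA, was higher by 1.62 (SE 0.36, adjusted p = 0.0353, limma). IRAK1, a kinase below the Toll-like receptors, was at least 4.75-fold higher, as it was not well above background on the normal crossbred arrays. It passed the filter through the lame group alone, where its signal was highest. Against Tharparkar cattle TLR3 (0.89) and IRAK1 (1.98) were called higher, and MAVS (-0.61) and IRF3 (-0.50) lower. IRAK1 was well above background on 1 of the 2 Tharparkar arrays.

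Of 16 negative regulators, 0 were called lower (all genes 6.33%) and 0 higher (all genes 3.25%) between lame and normal crossbred cattle. SOCS2 was called higher and IRF4 lower in normal crossbred than in Tharparkar cattle (1.25 and -1.29), and against Tharparkar cattle TREX1 was called higher in lame cattle (0.59) and TRIM21 and IRF4 lower (-0.64 and -1.05). Of 12 interferon gamma targets, 3 were called lower in lame than in normal crossbred cattle (all genes 6.33%) and 0 higher (all genes 3.25%). They were IRF1 (-0.53), SLAMF7 (-1.21) and SERPING1, the C1 inhibitor, which was not well above background on any lame array and was at least 2.10-fold lower. IDO1, SLAMF7 and GBP5 were called higher and IRF8 lower in normal crossbred than in Tharparkar cattle. GBP5 passed the filter through the normal crossbred group alone. It was well above background on 3 of 4 lame arrays and 0 of 2 Tharparkar arrays. GBP5 was thus at least 1.86-fold higher in normal crossbred than in Tharparkar cattle, and no such bound was computed for lame cattle. Lame cattle had higher IDO1, CXCL10 and GBP5 and lower SERPING1 and IRF8 than Tharparkar cattle.

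Of 43 other interferon-stimulated genes measured, 5 were called lower (all genes 6.33%) and 1 higher (all genes 3.25%) between lame and normal crossbred cattle. SAMHD1, which depletes the nucleotides needed for reverse transcription, was -0.28 and -0.39 on lame R1, -0.19 and -0.17 on lame R2, 1.07 and 1.1 on normal crossbred and 0.85 and 0.86 on Tharparkar arrays. All lame arrays were below all normal ones, and SAMHD1 was called against both normal groups (-1.34, SE 0.13, adjusted p = 0.00158, and -1.11, SE 0.13, adjusted p = 0.00177, limma). The other lower genes were the death receptor FAS (-0.92), the cytidine deaminase APOBEC3Z1 (-2.23), PML (-0.85) and the activation marker CD69 (-1.04). The higher one was IFI47, an interferon-inducible GTPase (2.29, SE 0.16, adjusted p = 0.000565, limma), between 2.81 and 3.28 on the lame arrays and 0.69 and 0.77 on the normal crossbred ones. Against Tharparkar cattle 10 of the 43 were called lower in lame cattle (all genes 10.8%), among them TAP1, TAP2 and PSMB10 of antigen processing. In that comparison 4 were called higher (all genes 12.5%), among them PNPT1, IFI35 and IFI47. Between the normal groups PHF11 and IFI35 were called higher and IFI47, PSMB10 and UBE2L6 lower in crossbred cattle.

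Without lame R2_2, 13 of the pathway genes called between lame and normal crossbred cattle stayed called and 1 did not, IRF1 (adjusted p = 0.0582, limma). The negative regulator TREX1 was newly called higher (0.61, adjusted p = 0.0399, limma) and DTX3L newly called lower (-0.86, adjusted p = 0.0495, limma). Against Tharparkar cattle 24 stayed called and 5 did not, among them STAT4, MAVS, TLR3 and IFI47 (adjusted p of 0.0566, 0.0564, 0.0567 and 0.0616, limma). There 4 were newly called, IFNAR1 (-0.84) and TRIM56 (-1.04) lower and IRF2 (0.56) and IKBKE (0.57) higher in lame cattle.

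The mix of cells differed between the groups by their marker genes, and in whole mononuclear cells fewer cells of a type and less RNA per cell cannot be told apart. The signals of the 8 T cell markers, each as a ratio to the array's 75th percentile, summed to 43.3 to 47.5 on the lame arrays, 74.4 to 78.3 on the normal crossbred arrays and 39.3 to 39.8 on the Tharparkar arrays. The 5 NK cell markers summed to 34.7 to 71.0, 118 to 128 and 46.6 to 50.7. Normal crossbred cattle were thus highest in both sums, though not in every marker. Of the 8 T cell markers, 6 were called higher and 1 lower in normal crossbred than in Tharparkar cattle. Over all genes these shares were 11.8% and 6.9%. Between lame and normal crossbred cattle, 4 of the 8 T cell markers and 2 of the 5 NK cell markers were called lower and 0 higher. All genes had 6.33% called lower and 3.25% higher there. Against Tharparkar cattle 1 T cell marker and 0 NK cell markers were called lower in lame cattle, and 0 of either higher. The 6 monocyte markers summed to 33.1 to 52.1, 28.3 to 28.6 and 32.5 to 34.3, and 4 measured B cell markers of 6 to 97.4 to 162, 157 to 158 and 169 to 190. Single monocyte markers moved in both directions: CD14, the lipopolysaccharide co-receptor, was lower in lame than in normal crossbred and Tharparkar cattle (-1.56 and -1.62, adjusted p = 0.0228 and 0.0104, limma), and CSF1R, the receptor of macrophage colony-stimulating factor, was higher (1.00 and 0.80, adjusted p = 0.025 and 0.0288, limma).

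Plasmacytoid dendritic cells are the main producers of type I interferon in blood. Their 4 measured markers of 6, IRF8, TCF4, SPIB and BLNK, summed to 34.4 to 50.3, 39.1 to 42.1 and 62.9 to 66.5, highest in Tharparkar cattle. PLD4 and FLT3 were not measured. The sum of the B cell markers was likewise highest in Tharparkar cattle, and whether these 4 genes read plasmacytoid dendritic cells alone was not tested. IRF8, also listed above as a target of interferon gamma, is 1 of the 4. Its log2 signal was 5.22 and 5.05 on the Tharparkar arrays, so it weighs heavily in that sum. The 9 measured granulocyte markers of 10 summed to 151 to 198, 199 to 210 and 194 to 202. Against each normal group 5 of them were called lower in lame cattle, beside 6.33% (normal crossbred) and 10.8% (Tharparkar) of all genes. These were CXCR2, CXCR1, ELANE and CATHL1 in both comparisons, MPO against normal crossbred and LTF against Tharparkar cattle. The chemokine receptors of neutrophils had the largest of these differences, -3.33 and -5.55 for CXCR2 and -3.82 and -4.78 for CXCR1 from normal crossbred and Tharparkar cattle. CXCR2 was well above background on 2 of the 4 lame arrays. CATHL1, a cathelicidin of their granules, was not well above background on any lame array and was at least 3.29-fold lower than in Tharparkar cattle. It passed the filter through the Tharparkar group alone, where its signal was highest. CATHL1 was well above background on only 1 normal crossbred array, and no such bound was computed against that group. The bright S100A8 and S100A12, which were not called, were between 5.99 and 6.74 on the lame arrays and 6.25 and 6.66 on the normal ones. The part of these cell markers, and of the higher background on lame R2_2, in the differences of the interferon response genes was not tested.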

How the data were processed

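Each of the 8 scanner files holds spot intensity values as the authors deposited them. Per the file headers, Agilent Feature Extraction 12.0.3.1 subtracted background and detrended the processed signal within the array, with no scaling between arrays. The submitters' processing notes name version 11.5.1.1. A table of log2 values that the authors deposited, of unstated scale and centring, matched the log2 signal less the 75th percentile and the probe's median and served as an alternative.

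The log2 processed signal was scaled by subtracting each array's 75th percentile (43653 noncontrol probes) and averaged over spots. Outlier-marked probes (35) were left out, and no spot was saturated. Probes passed if well above background on all arrays of 1 group or more. Accessions were matched to RefSeq symbols (assembly ARS-UCD2.0): 27035 probes matched 1 gene and 16583 kept the file's name. Each gene was read by its probe with the highest mean. Every measured member is reported, with the values of each array for members called in a comparison. Of the other lists, not every called gene is named, and the genes named were chosen after their values were seen.

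Groups were compared in 1 fit (limma 3.58.1, R 4.3.3, lmFit then eBayes, two-sided, 3 group means, 5 residual and 2.34 prior degrees of freedom), adjusted by Benjamini-Hochberg over 15137 genes, and checked on simulated data. Where a probe was not above background in 1 group, a lower bound of the fold is given: the mean of the brighter group over the mean, per array, of the higher of the probe's signal and the lowest signal well above background. Some items of the lists are not reported here. The members and lists were chosen with earlier results of these data known. Alternatives were quantile normalization, normexp background (offset 50, on the median signals), the authors' table, no filter, the mean of a gene's probes, slide as a block, duplicates averaged, the RNA sample as a random block, and each array left out. The number of arrays limits the precision.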

Additional observations from a re-analysis of the deposited data

How the results depend on the processing

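Of the differences of single genes recomputed under 16 alternatives, 335 values kept their direction and side of the threshold, 143 kept the direction but were no longer called, 6 were newly called and 12 turned direction. Of the 335, 31 came from the authors' table, whose group differences match the main ones by construction. Members called lower between lame and normal crossbred cattle numbered 8, and 3 with no filter on dim probes, 4 with a gene's probes averaged, 1 with duplicates averaged, 0 with the RNA sample as a random block, and 0 to 8 when 1 array was left out (0 without normal crossbred R1 or R2). Members called higher there numbered 0, and 1 with quantile normalization and 0 to 1 with 1 array left out. Members called higher in normal crossbred than in Tharparkar cattle numbered 7, and 4 with normexp, 0 with no filter, 3 with the mean of probes, 4 with slide as a block, 0 with duplicates averaged, 0 with the random block, and 0 to 7 with 1 array left out (0 without either array of either normal group). Members called lower there numbered 0, and 0 to 1 with 1 array left out. Between lame and Tharparkar cattle 1 was called higher, and 0 with normexp, 0 with the random block and 1 to 2 with 1 array left out. There 5 were called lower, and 2 with no filter, 2 with duplicates averaged, 1 with the random block and 1 to 6 with 1 array left out (2 and 1 without Tharparkar R1 and R2). The difference of IRF7 between lame and normal crossbred cattle turned to 0.084 with quantile normalization, 0.12 with normexp and ranged from -0.23 to 0.18 with 1 array left out, and against Tharparkar cattle it turned to 0.045 with normexp. ISG15 between the normal groups turned to 0.016 with quantile normalization and 0.093 with normexp, OAS2 turned to -0.44 between them and to -0.17 between lame and Tharparkar cattle with normexp, and STAT2 between the normal groups ranged from -0.13 to 0.14 with 1 array left out. The cause of these changes was not tested. Of all genes, 0.871% were called lower between lame and normal crossbred cattle with no filter and 5.27% with the mean of probes. The shares called higher between the normal groups were 5.54% with normexp and 2.61% with no filter. They were 12.2% with the mean of probes and 9.9% with slide as a block. Between lame and Tharparkar cattle 2.18% were called lower with no filter. Fits with fewer arrays or without the filter (26649 genes) have less power by construction, and where a normal array is left out, the lone one is assumed to vary like the others. With duplicates averaged, 1 residual degree of freedom and an infinite prior make a call depend on the fold alone. Normexp moved the median of all genes between lame and Tharparkar cattle from -0.01 to -0.15, and no filter moved it to 0.22 there, to 0.31 between lame and normal crossbred cattle and to -0.21 between the normal groups. No paired analysis was possible because the lame titles carry 2 numbers and the normal titles 1, and slide was tried as a block instead. The search for a promoter motif was not run, as no promoter sequence was at hand.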
